A study of Mus musculus with 7 samples.

Results

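The chemokines Ccl3, Ccl4, Ccl5, Ccl6, Ccl9, Cxcl1, Cxcl2, Cxcl9, Cxcl10 and Cxcl12 are 10 genes chosen by symbol out of the 22173 genes of a mouse spleen RNA sequencing table, where all 10 were found. Spleens had been remodelled by 4 injections of a biomaterial called sHA-X in the labels, or given phosphate-buffered saline (PBS), and hepatocytes were then injected into them. The PBS group has 3 libraries and the sHA-X group 4, and in both groups RNA was taken 30 days after the hepatocytes were injected. The strain, sex and age of the mice, the source of the hepatocytes, and whether each library is a separate animal are not stated in the labels, and the p-values therefore reflect the spread among these 7 libraries and no more, which may be technical. The comparison addresses how the remodelled spleen differs from the PBS spleen at that time. Values are FPKM, fragments scaled by transcript length and by sequencing depth, and a mean is followed by ± its SD, over n = 3 libraries (PBS) or n = 4 (sHA-X).

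Chemokines are small secreted proteins that bind G protein-coupled receptors on leukocytes and draw those cells along a gradient. The CC family is named for adjacent cysteines near the start of the mature protein and the CXC family for a residue between them. In the spleen, macrophages, monocytes, neutrophils, lymphocytes and stromal cells all release chemokines, and bulk RNA does not tell these sources apart. Cxcl12 is known mainly as a constitutive stromal chemokine, so the set is not purely inflammatory.

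The genes lie mostly in clusters. The 5 CC genes share chr11:83525778-83664683, a span of 138.9 kb on GRCm38 (mm10). Cxcl1 and Cxcl2 lie 14.7 kb from end to end at chr5:90891245-90905938, and Cxcl9 and Cxcl10 at chr5:92321331-92348889. Cxcl12 is alone on chromosome 6, at chr6:117168535-117181368. Exons of Cxcl10 overlap exons of Art3 on the opposite strand, and the RefSeq span of Ccl4 covers 755 of the 1536 bases of Ccl3 on the opposite strand, without shared exons in GENCODE. No source used here states whether counting used the strand. Art3 stood between 1.07 and 2.23 FPKM in the 7 libraries, against 21.2 to 47.4 FPKM for Cxcl10.

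Promoter windows in the RefSeq table (GRCm38.p6) matched 8 of the 10 genes. Ccl4 and Ccl5 had no entry. The 250 bases before the annotated start are shown for Cxcl1 and Cxcl2, and for Cxcl10, one of the interferon-inducible members. Within sHA-X the libraries of Cxcl1 and Cxcl2 fell in the same order, which Ccl3, Ccl6 and Ccl9 shared. Capitals mark matches on either strand to the NF-κB consensus and, in Cxcl10, also to the interferon-stimulated response element (ISRE).
Cxcl1, plus strand, chr5:90890995-90891244: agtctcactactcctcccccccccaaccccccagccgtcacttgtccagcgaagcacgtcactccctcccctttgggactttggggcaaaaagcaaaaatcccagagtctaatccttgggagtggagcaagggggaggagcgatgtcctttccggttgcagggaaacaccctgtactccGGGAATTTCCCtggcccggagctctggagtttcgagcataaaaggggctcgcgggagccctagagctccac
Cxcl2, plus strand, chr5:90903649-90903898: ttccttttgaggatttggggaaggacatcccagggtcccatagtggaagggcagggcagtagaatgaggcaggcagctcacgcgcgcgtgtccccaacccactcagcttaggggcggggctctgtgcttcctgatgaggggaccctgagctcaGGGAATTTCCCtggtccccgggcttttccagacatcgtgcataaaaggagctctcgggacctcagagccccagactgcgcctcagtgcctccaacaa
Cxcl10, minus strand, chr5:92348890-92349139: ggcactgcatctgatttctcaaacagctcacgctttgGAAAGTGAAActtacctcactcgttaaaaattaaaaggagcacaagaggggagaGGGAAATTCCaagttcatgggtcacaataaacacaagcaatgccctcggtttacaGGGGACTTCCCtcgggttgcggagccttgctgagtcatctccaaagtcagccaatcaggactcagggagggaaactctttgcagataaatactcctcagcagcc

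The Cxcl1 and Cxcl2 windows share the run GGGAATTTCCCTGG, 14 bases long, which begins 71 bases before the start of Cxcl1 and 97 bases before that of Cxcl2. Overlapping matches on the plus and minus strands make up the capitals in both. In Cxcl10 the ISRE match, GAAAGTGAAA, begins 213 bases before the start, and the NF-κB matches begin 159 and 104 bases before it. Of the 8 windows, those of Ccl9, Cxcl1, Cxcl2 and Cxcl10 held an NF-κB match, as did 7.25% of 32851 windows of the same length. The response element was found only in the window of Cxcl10 among the 8, and in 2.98% of all windows. The gamma-activated sequence TTCNNNGAA was in none of the 8 and in 7.02% of all windows. A match is a description of letters, and binding was not measured.

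Every library held recognisable spleen RNA, with summed B cell markers between 1088 and 1922 FPKM. The 7 libraries held 29543963 to 37142126 reads, recovered from the steps of the FPKM values, so depth differed by at most 1.26 times. Of 11920 genes tested, limma put 1108 (9.3%) above PBS and 600 (5.03%) below it in the sHA-X spleens, at adjusted p-values under 0.05. With median-of-ratios scaling the split was 1001 higher and 843 lower, and with upper-quartile scaling 842 and 738. Some libraries carried RNA of other tissues. Pancreatic acinar markers summed to 971.7 FPKM in PBS replicate 2 and at most 35.2 FPKM elsewhere, and skeletal muscle markers to 189.3 FPKM in sHA-X replicate 2 and at most 10.2 FPKM elsewhere. In sHA-X replicates 3 and 4 hepatocyte markers summed to 723.5 and 746.6 FPKM, and elsewhere to at most 25.3 FPKM. In those libraries the markers made up 0.211% (pancreas), 0.0429% (muscle), and 0.158% and 0.168% (hepatocyte) of the summed FPKM. Erythroid markers ranged from 21633 to 44270 FPKM in PBS and from 15702 to 24757 FPKM in sHA-X.

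Of the 10 chemokines, 9 passed the filter of a mean of 1 FPKM over all libraries. Ccl3, Ccl9 and Cxcl12 rose in sHA-X, none fell, and Ccl4, Ccl5, Ccl6, Cxcl2, Cxcl9 and Cxcl10 did not pass. Rises were called in 3 of 9, set against 9.3% of all genes tested. At an unadjusted p under 0.05, 6 were higher and 0 lower by limma, set against 18.3% and 11.5% of all genes tested. Voom on the recovered reads called 3 higher and 0 lower at an adjusted p under 0.05, and 6 and 0 unadjusted. All 9 changes were positive, with a median of 0.84 on the log2(FPKM + 1) scale, where the median of all genes tested was 0.03. The groups did not overlap for 6 of the 9, always with sHA-X higher, as for 17.2% of genes tested. Ccl3 and Cxcl2 had PBS means under 1 FPKM and passed the filter only through sHA-X, so these counts and the median are not independent of the filter. The 3 rises also depended on the libraries, with 0 called without PBS replicate 1 and 1 without PBS replicate 2.

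**Figure D1:**
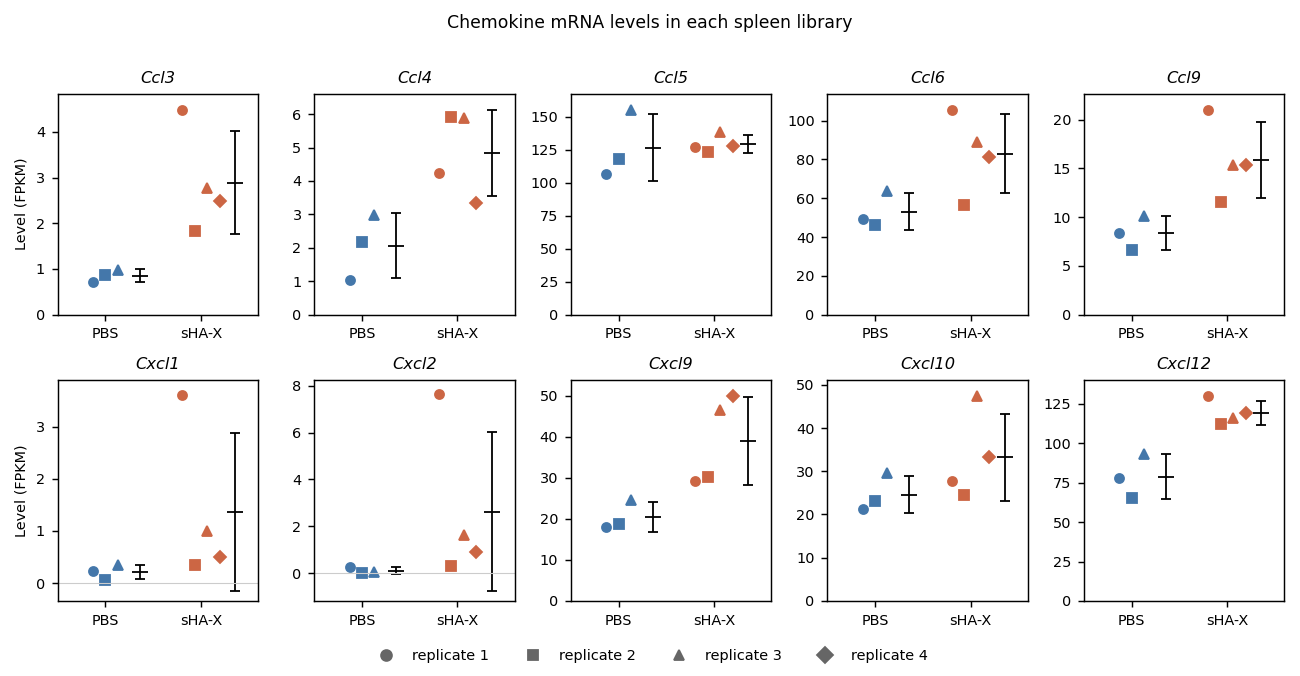
FPKM of each of the 10 chemokines (vertical axes, a separate scale for each gene) in PBS (blue) and sHA-X (orange) libraries. Each point is a library, its shape gives the replicate number, and the black bar is the mean ± SD. Ccl5 overlaps fully between groups, and the highest Cxcl1 and Cxcl2 values are those of sHA-X replicate 1.

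Levels per transcript length differed widely among the genes. In PBS, Ccl5 was highest at 126.4 ± 25.5 FPKM, followed by Cxcl12, Ccl6, Cxcl10, Cxcl9, Ccl9, Ccl4, Ccl3, Cxcl1 and Cxcl2. Neighbours in that order overlapped in PBS only for Cxcl10 with Cxcl9 and for Cxcl1 with Cxcl2. In sHA-X the ranges of Ccl5 and Cxcl12 overlapped, and Cxcl9 stood above Cxcl10 by mean. The last 4, Ccl4, Ccl3, Cxcl2 and Cxcl1, also overlapped each with its neighbour there.

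Ccl3 and Ccl4 (macrophage inflammatory proteins 1 alpha and 1 beta) are made by activated macrophages and lymphocytes to draw further leukocytes, and Ccl3 acts on Ccr1. Ccl3 was 0.708, 0.871 and 0.984 FPKM (PBS, replicates in order) against 4.48, 1.83, 2.76 and 2.48 FPKM (sHA-X, replicates in order). All 4 sHA-X libraries lay above the highest PBS library. The mean was 3.38-fold higher, with a log2 change of 1.03 (limma SE 0.20, adjusted p = 0.015), but leaving out PBS replicate 1 or PBS replicate 2 ended the call (adjusted p = 0.071 and 0.051). These values rest on 18 to 26 reads per PBS library and 43 to 113 per sHA-X library.

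Ccl4 was 1.04, 2.18 and 2.99 FPKM (PBS) against 4.22, 5.92, 5.89 and 3.33 FPKM (sHA-X). Its groups did not overlap either, although sHA-X replicate 4 lay only just above PBS replicate 3. The log2 change was 0.96 (SE 0.27, 95% interval 0.32 to 1.59), and it did not pass (adjusted p = 0.059 by limma). Without PBS replicate 3 the adjusted p was 0.029. Ccl4 was highest in sHA-X replicate 2, the library in which Ccl3 was lowest of the 4.

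Ccl6 and Ccl9 are CC chemokines of rodents that myeloid cells express and that act on Ccr1. Ccl9 was 8.36, 6.59 and 10.1 FPKM (PBS) against 21.0, 11.6, 15.4 and 15.4 FPKM (sHA-X). The lowest sHA-X library was above the highest PBS library. The mean was 1.895-fold higher, a log2 change of 0.84 (limma SE 0.20, adjusted p = 0.040). Leaving out PBS replicate 1 or 2 ended the call (adjusted p = 0.12 and 0.11), as did leaving out the third or the fourth sHA-X library (0.092 and 0.095).

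Ccl6 was several times more abundant than Ccl9 in each library, with a ratio of their FPKM between 4.88 and 6.98. It was 49.1, 46.0 and 63.7 FPKM (PBS) against 105.5, 56.4, 88.8 and 81.1 FPKM (sHA-X). Here sHA-X replicate 2 lay within the PBS range and the other 3 above it. The log2 change was 0.62 (SE 0.22, 95% interval 0.08 to 1.15) and did not pass (adjusted p = 0.12 by limma). Without sHA-X replicate 2 the adjusted p was 0.018.

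Ccl5 (RANTES), a chemokine of T cells and natural killer cells that acts on receptors including Ccr1 and Ccr3, showed no difference between the groups beyond their spread. It was 106.4, 117.7 and 155.1 FPKM (PBS) against 126.9, 123.3, 138.6 and 127.9 FPKM (sHA-X), so all sHA-X libraries lay inside the PBS range. The log2 change was 0.05 (95% interval -0.22 to 0.32, adjusted p = 0.83 by limma), and it was -0.07 without PBS replicate 1. The T and NK cell markers summed to 274.8 to 350.3 FPKM (PBS) and 236.2 to 268.3 FPKM (sHA-X). Of these 13 markers, 1 was lower (Cd8a), against 5.03% of all genes tested, and 12 did not pass. Their part in the level of Ccl5 was not tested.

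Cxcl1 (KC) and Cxcl2 (MIP-2) recruit neutrophils through Cxcr2, and both were low in the spleen except in sHA-X replicate 1. Cxcl2 was 0.287, 0 and 0.0828 FPKM (PBS) against 7.63, 0.311, 1.66 and 0.916 FPKM (sHA-X). The groups were apart, but sHA-X replicate 2 was only just above PBS replicate 1. Reads numbered 10, 0 and 3 (PBS) against 264, 10, 60 and 37 (sHA-X). The log2 change of Cxcl2 was 1.30 with a 95% interval of -0.31 to 2.92, and it did not pass (adjusted p = 0.25 by limma). Its ratio of means was 21.3, and leaving out 1 library gave ratios from 7.80 (without sHA-X replicate 1) to 63.5 (without PBS replicate 1).

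Cxcl1 was 0.228, 0.0655 and 0.344 FPKM (PBS) against 3.61, 0.353, 1.002 and 0.505 FPKM (sHA-X). Its mean over all libraries was below the filter. The groups were apart by a margin of less than 1 read, since PBS replicate 3 held 11 reads and sHA-X replicate 2, a shallower library, 10. With no filter its log2 change was 0.79 (SE 0.41, adjusted p = 0.30 by limma). The ratio of means was 6.43, and leaving out 1 library gave ratios from 2.92 (without sHA-X replicate 1) to 9.32 (without PBS replicate 3). The promoters of this pair, printed above, share the run around their NF-κB match. Cxcl3 and Cxcl5, further Cxcr2 ligands named here after their values were seen, were also highest in sHA-X replicate 1, at 5.72 and 12.7 FPKM. The other 6 libraries held at most 0.587 and 4.18 FPKM. Within sHA-X, replicate 1 was highest for 22.2% of genes tested. Ppbp, also a Cxcr2 ligand, went the other way, from a mean of 262.8 FPKM (PBS) to 166.2 FPKM (sHA-X) (adjusted p = 0.0060 by limma). Its highest sHA-X value was 194.5 FPKM in replicate 3, against 161.4 FPKM in replicate 1.

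Cxcl9 and Cxcl10 are induced by interferon and draw activated T cells and natural killer cells through Cxcr3. Cxcl9 was 18.1, 18.8 and 24.7 FPKM (PBS) against 29.3, 30.2, 46.4 and 49.9 FPKM (sHA-X). The groups did not overlap, and sHA-X replicates 3 and 4 were highest. The mean was 1.899-fold higher, with a log2 change of 0.87 (SE 0.23, 95% interval 0.32 to 1.42), which did not pass (adjusted p = 0.053 by limma). Its adjusted p lay between 0.024 and 0.17 over the 17 alternatives, and 4 of them called it.

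Cxcl10 was 21.2, 23.1 and 29.5 FPKM (PBS) against 27.8, 24.4, 47.4 and 33.3 FPKM (sHA-X). Replicates 1 and 2 of sHA-X lay within the PBS range and replicates 3 and 4 above it. The log2 change was 0.39 (SE 0.23, 95% interval -0.18 to 0.95, adjusted p = 0.33 by limma). Within a library the ratio of Cxcl9 to Cxcl10, chosen after the values were seen and not tested, was 0.851, 0.812 and 0.837 (PBS) against 1.05, 1.24, 0.980 and 1.497 (sHA-X). This ratio does not depend on library scaling.

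Cxcl12 (SDF-1), which retains leukocytes and progenitors through Cxcr4, had the smallest standard error of the chemokines that rose. It was 78.0, 64.98 and 93.3 FPKM (PBS) against 129.8, 112.3, 115.7 and 119.2 FPKM (sHA-X). All 4 sHA-X libraries lay above all PBS libraries. The mean was 1.51-fold higher, a log2 change of 0.61 (limma SE 0.11, adjusted p = 0.011), and without PBS replicate 1 the adjusted p was 0.051. Stromal markers summed to 434.6 to 526.9 FPKM (PBS) and 568.9 to 762.8 FPKM (sHA-X), with 5 of 9 higher, against 9.3% of all genes tested. Of these 5, Lum passed the filter only through sHA-X. The log2 change was positive for 7 of the 9, all except Ccl19 (-0.18) and Ccl21a (-0.10), which did not pass (adjusted p = 0.47 and 0.85 by limma). Endothelial markers ranged from 176.2 to 225.8 and from 187.3 to 232.0 FPKM, with 0 of 7 called and 0 of 7 at an unadjusted p under 0.05 by limma or voom. The part of stromal markers in the level of Cxcl12 was not tested, and more such cells cannot be told apart from more RNA per cell.

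**Figure D2:**
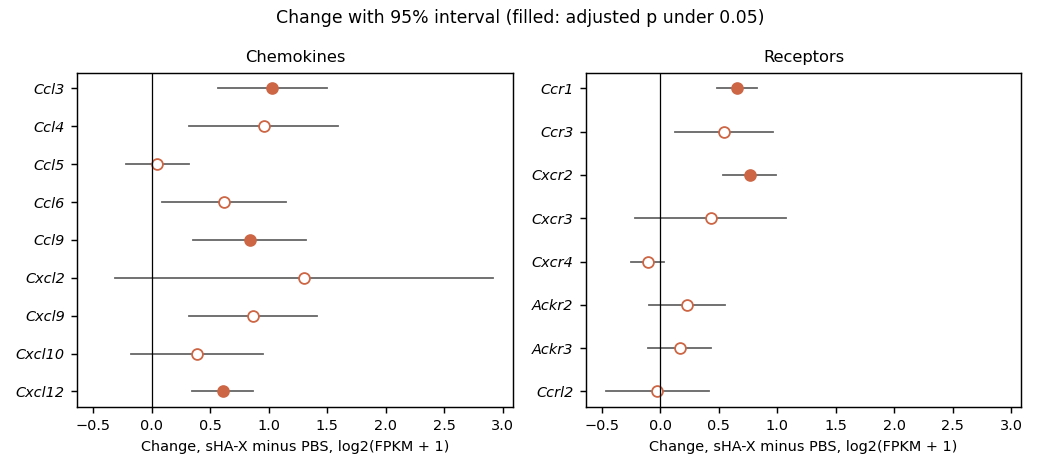
Change from PBS to sHA-X on the log2(FPKM + 1) scale (horizontal axes) for the 9 tested chemokines (left) and 8 tested receptors (right), with 95% intervals from limma. Filled points passed an adjusted p under 0.05: Ccl3, Ccl9, Cxcl12, Ccr1 and Cxcr2. The interval of Cxcl2 is the widest of those drawn.

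Among receptors of these chemokines, Ccr1 and Cxcr2 rose and the other 6 tested did not pass. Of 10 receptor genes described, 8 were tested, 2 rose and 0 fell, against 9.3% and 5.03% of all genes tested. At an unadjusted p under 0.05, 3 were higher and 0 lower by limma and by voom, set against 18.3% and 11.5% of all genes by limma. The median log2 change was 0.33. Ccr1, which binds Ccl3, Ccl5, Ccl6 and Ccl9, was 6.08, 5.93 and 6.80 FPKM (PBS) against 11.0, 9.74, 11.1 and 9.90 FPKM (sHA-X). The gap between the groups exceeded the range within each, with a log2 change of 0.65 (limma SE 0.07, adjusted p = 0.0015).

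Cxcr2, the receptor for Cxcl1 and Cxcl2, was 10.8, 10.5 and 11.0 FPKM (PBS) against 21.9, 16.8, 20.8 and 17.0 FPKM (sHA-X) (limma log2 change 0.76, SE 0.10, adjusted p = 0.0025). The calls of Ccr1 and Cxcr2 held in all 17 alternatives run. Cxcr2 is also a neutrophil marker. Neutrophil markers summed to 2022 to 3438 FPKM (PBS) and 3509 to 5558 FPKM (sHA-X), and the groups did not overlap. S100a8 and S100a9 held most of each sum, and neither passed (adjusted p = 0.12 and 0.11 by limma). Of these 13 genes, Csf3r and Cxcr2 were higher at an adjusted p under 0.05, against 9.3% of all genes tested. At an unadjusted p under 0.05, 7 were higher and 0 lower by limma and by voom, set against 18.3% and 11.5% of all genes by limma. The log2 change was positive for 11 of the 13, all except Retnlg (-0.01) and Ly6g (-0.06), with a median of 0.56. The part of neutrophil content in these values was not tested.

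Ccr3, a receptor of eosinophils, was 20.9 ± 4.51 FPKM (PBS) and 30.7 ± 5.48 FPKM (sHA-X), with an adjusted p of 0.090 by limma. For Cxcr3, the receptor for Cxcl9 and Cxcl10, sHA-X split into replicates 1 and 3 at 8.62 and 8.55 FPKM, within the PBS range of 7.38 to 9.21 FPKM, and replicates 2 and 4 at 16.7 and 15.8 FPKM (adjusted p = 0.35). Replicate 2, the highest of sHA-X for Cxcr3, was the lowest for Cxcl10, while replicate 4 was above the PBS range for both. Cxcr4, the receptor of Cxcl12, was 97.1 ± 1.92 and 90.1 ± 5.23 FPKM (log2 change -0.11, 95% interval -0.25 to 0.03, adjusted p = 0.28). The scavenging receptors Ackr2 and Ackr3, and Ccrl2, did not pass (adjusted p = 0.33, 0.41 and 0.94). Cxcr1 did not reach the filter, with a highest value of 0.508 FPKM, and Ackr1 was listed at 0 in all 7 libraries.

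Within sHA-X the chemokines did not all share a single order of libraries. Ccl3, Ccl6, Ccl9, Cxcl1 and Cxcl2 did share one, falling from replicate 1 through replicates 3 and 4 to replicate 2. For Ccl9, replicates 3 and 4 were nearly equal. Replicate 1 was highest for Ccl3, Ccl6, Ccl9, Cxcl1, Cxcl2 and Cxcl12, 6 of 10, as for 22.2% of genes tested. Replicate 2 was lowest for 8 of 10, all except Ccl4 and Cxcl9, as for 19.7% of genes tested. In contrast, sHA-X replicates 3 and 4 were the highest for Ccl5, Cxcl9 and Cxcl10. In PBS, replicate 3 was highest for 9 of 10, all except Cxcl2, and that library was highest for 52.1% of genes tested. Erythroid markers made up 4.74% of the summed FPKM in PBS replicate 3 and 9.69% and 8.81% in PBS replicates 1 and 2. The part of erythroid RNA in these orders was not tested.

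**Figure D3:**
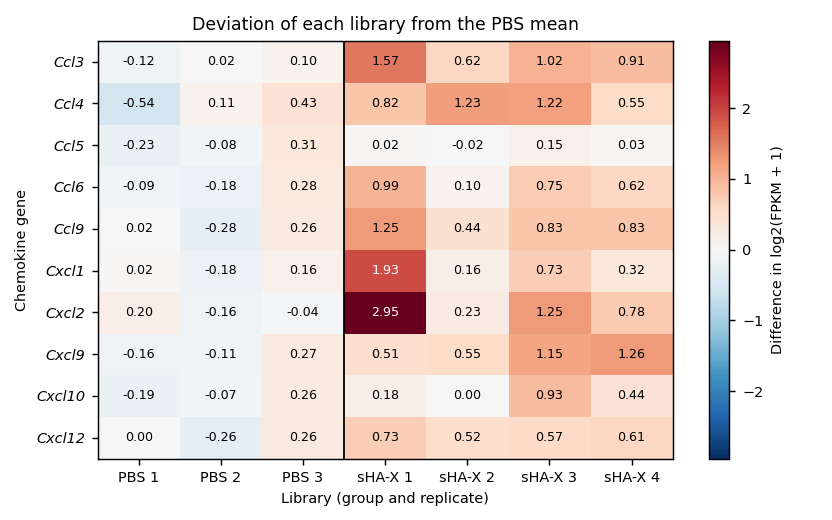
Difference of each library (columns) from the mean of the 3 PBS libraries on the log2(FPKM + 1) scale for each chemokine (rows), with red above and blue below that mean. sHA-X replicate 1 stands out for Cxcl2 (2.95) and Cxcl1 (1.93), and sHA-X replicates 3 and 4 for Cxcl9 (1.15 and 1.26).

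Most genes known to induce or regulate these chemokines did not pass. Of 20 inducers and regulators, 16 were tested, 2 rose (Il1b and Irf1) and 0 fell, against 9.3% and 5.03% of all genes tested. At an unadjusted p under 0.05, 3 were higher and 1 lower by limma and by voom, set against 18.3% and 11.5% of all genes by limma. The median log2 change was 0.0014. Il1b, an inducer of Cxcl1 and Cxcl2, was 12.3, 11.2 and 12.6 FPKM (PBS) against 43.8, 26.1, 33.2 and 26.1 FPKM (sHA-X) (limma log2 change 1.32, SE 0.18, adjusted p = 0.0046). Its highest value was in sHA-X replicate 1, as for Cxcl1 and Cxcl2, and as within sHA-X for 22.2% of genes tested. The part of Il1b in the levels of Cxcl1 and Cxcl2 was not tested. Tnf was 5.0003 ± 0.507 and 4.76 ± 0.256 FPKM (adjusted p = 0.69). The NF-κB subunits and inhibitors Nfkb1, Nfkb2, Rela, Relb, Nfkbia, Nfkbiz and Tnfaip3 did not pass, with adjusted p from 0.24 to 0.98 by limma.

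Among interferon gamma response genes, 9 of 17 tested rose and 0 fell, against 9.3% and 5.03% of all genes tested. At an unadjusted p under 0.05, 10 were higher and 1 lower by limma and by voom, set against 18.3% and 11.5% of all genes by limma. The median log2 change was 0.32. Those that rose included the inhibitor Socs1, the immunity-related GTPases Irgm2 and Iigp1, the guanylate-binding protein Gbp5 and the transcription factor Irf1. Iigp1 was 22.9, 23.4 and 23.3 FPKM (PBS) against 38.4, 36.7, 54.8 and 61.0 FPKM (sHA-X) (adjusted p = 0.016 by limma). As for Cxcl9 and Cxcl10, sHA-X replicates 3 and 4 were the highest for 11 of these 17 genes, as for 13.9% of all genes tested. These are also the libraries with hepatocyte RNA, and the part of the graft in these levels was not tested. Ifng itself was under the filter, at 0.539 to 1.09 FPKM (PBS) and 0.336 to 1.40 FPKM (sHA-X).

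**Figure D4:**
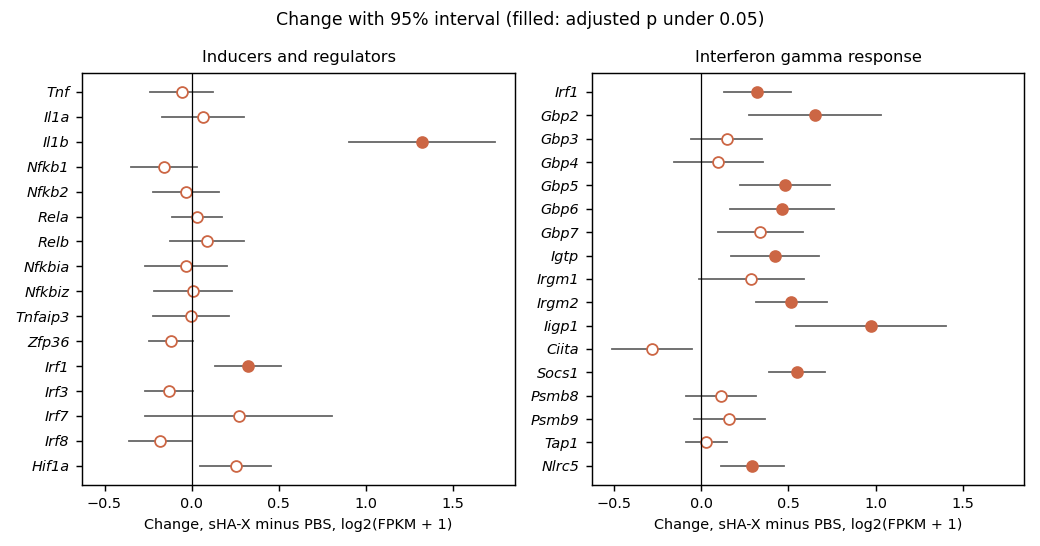
Change from PBS to sHA-X on the log2(FPKM + 1) scale (horizontal axes) with 95% intervals for tested inducers and regulators of chemokines (left) and interferon gamma response genes (right). Filled points passed an adjusted p under 0.05: Il1b and Irf1 on the left, and 9 of 17 genes on the right.

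Of 11 genes whose products trim or retain chemokines outside the cell, 3 rose and 1 fell, against 9.3% and 5.03% of all genes tested. Dpp4, the peptidase that removes the first residues of Cxcl9, Cxcl10 and Cxcl12, fell from 18.6 ± 1.64 to 13.2 ± 0.88 FPKM (adjusted p = 0.0064 by limma). The metalloproteinases Mmp2 and Mmp9 rose (adjusted p = 0.0036 and 0.011), as did Ext1, which elongates the heparan sulfate that holds chemokines (adjusted p = 0.0027). Of 25 other chemokine genes, 15 were tested, 6 rose (Ccl7, Ccl8, Ccl11, Ccl12, Cxcl14 and Cxcl16) and 3 fell (Cxcl13, Pf4 and Ppbp), set against 9.3% and 5.03% of all genes tested, with 4 higher and 3 lower by voom. All of the 6 except Cxcl16 had PBS means under 1 FPKM and passed the filter only through sHA-X, so this count of rises is tied to the filter. Cxcl11 had no row in the table.

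Red pulp macrophage markers were also higher in sHA-X. All 11 were called higher, with sums of 1472 to 1918 FPKM (PBS) and 3054 to 3264 FPKM (sHA-X). The share over all genes tested, for this list and those that follow, was 9.3% higher and 5.03% lower. Mast cell and basophil markers summed to 6.32 to 8.17 and 15.4 to 20.2 FPKM, with 5 of 6 higher, 3 of which (Mcpt4, Tpsb2 and Fcer1a) passed the filter only through sHA-X. Monocyte markers summed to 457.5 to 504.7 and 505.8 to 529.7 FPKM, with 2 of 7 tested higher and 1 lower. B cell markers ranged from 1611 to 1922 and from 1088 to 1259 FPKM, with 6 of 7 lower. No marker of these lists was at 0 in every library. The part of these cell types in the levels of Ccl3, Ccl9 and Cxcl12 was not tested.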

How the data were processed

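Per the labels' protocols, spleen RNA went into libraries with the VAHTS Universal V6 kit. The submitters' processing notes list the tools fastp, HISAT2, HTSeq and DESeq2, also R 3.2.0, and the genome mm10, without roles. The authors deposited 1 table of FPKM values for all libraries, per the file's values, since its header names no unit: each gene's values in a library are multiples of 1 read's worth. Dividing by that worth gave read numbers within 0.01 of whole for 16889 of the 16889 genes seen in 2 or more libraries, taking the smallest numbers possible.

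The test was limma 3.58.1 (R 4.3.3; trend and robust variance) on log2(FPKM + 1), which understates changes at low values, comparing the 3 PBS with the 4 sHA-X libraries and no covariate. Genes averaging under 1 FPKM (10253) were left out, and Benjamini-Hochberg adjustment covered the remaining 11920. Intervals are 95%. Of the code, only the limma fit was tested on simulated data. Alternatives were other pseudocounts, filters, scalings and variance settings, a replicate block, voom, and leaving libraries out.

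Members, gene lists and tests were chosen with earlier results of these data known. Named by rule were all members and receptors, and from every other list up to 4 called genes with the smallest p. Art3 was named for its overlap. Tnf, Ifng, the NF-κB genes, Lum, Ccl19, Ccl21a, S100a8, S100a9, Retnlg, Ly6g, the remaining called chemokines, Cxcl3 and Cxcl5 were named after their values were seen. Results for 2 genes of the lists are not reported here.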

Additional observations from a re-analysis of the deposited data

Results flagged for a closer look

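The lowest or highest of the 4 sHA-X libraries stood far from the other 3 in 3 of 36 genes and marker sums examined in this way, and chance flags about 1 in 20. Cxcr4, the receptor of Cxcl12, was 82.2 FPKM in sHA-X replicate 4 and 92.6 to 92.8 FPKM in the other 3. Summed skeletal muscle markers were 189.3 FPKM in sHA-X replicate 2. Summed monocyte markers were 505.8 FPKM in sHA-X replicate 1, below the other 3. None of the 10 chemokines was set apart by this rule.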

How the results depend on the processing

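Among the 10 chemokines, rises numbered 5 without robust variance (Ccl4 and Cxcl9 added), and 0 to 4 with each library left out in turn, against 3. No chemokine fell in any of the 17 alternatives. Over all genes, leaving out 1 library gave 488 to 1263 higher and 228 to 637 lower, and leaving out PBS replicate 2 and sHA-X replicate 2 together gave 492 and 330. With the replicate block there were 276 higher and 72 lower genes, and 2 chemokines higher, Ccl4 and Cxcl9, while the calls of Ccl3, Ccl9 and Cxcl12 were lost. Numbers did not pair the libraries, since deviations of same-numbered libraries had correlations of 0.15, -0.21 and -0.29. With the block the log2 change of Ccl3 was 1.068 and that of Cxcl12 0.605, the same as without sHA-X replicate 4. That library is the only one numbered 4, so the block draws no log2 change from it. The cause of the other shifts was not tested. The log2 change of Ccl5, 0.048, lay between -0.066 (without PBS replicate 1) and 0.204 with 1 library left out. That of Ccrl2, -0.027, turned to 0.0399 with the block and to 0.125 without both second libraries, and lay between -0.213 and 0.0896 with 1 library left out. The voom fit was added after the data were seen. The planned fits with edgeR and DESeq2 were not run, because the table holds FPKM. Depth limits Cxcl1 and Cxcl2 most, with 20 and 13 reads over the 3 PBS libraries.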
